A study of Drosophila melanogaster with 2 samples.

Results

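Proteasome subunit genes were followed across the cells of the *Drosophila melanogaster* ovary at 2 ages. A gene was taken as a member when its symbol began with Prosalpha, Prosbeta, Rpn or Rpt followed by a digit, and 47 of the 13942 genes in the count matrices met this rule. They comprised 32 canonical subunits (7 of the alpha ring, 7 of the beta ring, 10 of the base and 8 of the lid) and 15 paralogs whose symbols end in R or T, with or without a number. Ovaries came from *w1118(x);;* females, a white-eyed laboratory strain, at 1 week and at 6 weeks after eclosion. Both ages had the same genotype, the labels list no treatment, and females and males were collected at eclosion and held in vials until dissection. Single cells were captured with 10x Genomics 3′ chemistry without enrichment for the anterior ovary, and 1 count matrix per age, called a library here, was analysed. The study's methods name 2 kit versions and a legend speaks of replicates, so a matrix may hold more than 1 capture, and its cells carry no mark by which captures could be told apart. The number of flies behind each library is not given in the sources used here. With 1 library per age no difference between the ages could be tested: every interval below is a 95% interval that covers counting error only, and age and library cannot be told apart.

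The 26S proteasome degrades proteins tagged with ubiquitin. Its core particle is a barrel in which outer rings of alpha subunits gate the entry and inner rings of beta subunits carry the peptidase sites. The regulatory particle caps the barrel: its base holds the Rpt ATPases, which unfold the substrate, together with ubiquitin-binding Rpn subunits, and its lid removes the ubiquitin chain. In many animals the subunit genes are transcribed together under a shared transcription factor of the Cap'n'collar family (cnc in flies). In the ovary the follicle epithelium makes large amounts of yolk and eggshell protein late in egg development, while germ cells load the egg with maternal protein and mRNA.

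After filtering, 9131 cells at 1 week and 9878 cells at 6 weeks were kept, with median depths of 10639 and 12585.5 UMIs (unique molecular identifiers, counted mRNA molecules) per cell. Mitochondrially encoded genes took 5.80% of UMIs at 1 week and 4.58% at 6 weeks. Cells fell into 27 clusters, of which 19 were named from marker genes as classes ending in "-like", and 8 stayed unnamed (1822 and 1958 cells). The libraries shared 178 of their barcodes, 26 of them among kept cells. All 8 germ cell markers, all 5 escort markers and all 5 muscle markers were at least 2-fold higher inside their class than outside it at both ages. Of the markers for Early-Mid FCs (follicle cells) 3 of 7 reached this fold at both ages. Of the Late FCs markers 8 of 10 reached it at 1 week and 7 of 10 at 6 weeks. The others were lower inside the class than outside it: the chorion genes Cp15 and Cp36 at both ages, and dec-1 at 6 weeks. Cp36 was at 0 UMIs in Late FCs-like cells at 6 weeks.

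Members took 416447 UMIs at 1 week and 522763 at 6 weeks, which is 0.351% and 0.354% of all UMIs. Nearly all of these fell on the canonical subunits. Levels are given as CPM, UMIs per 1000000 UMIs of the cells summed. Each 3′ UMI stands for a transcript whatever its length, so levels of different genes were set side by side without division by length, although capture of the 3′ end may differ between genes. In all cells the 32 canonical subunits summed to 3506 CPM (3496 to 3517) at 1 week and 3537 CPM (3528 to 3547) at 6 weeks. The log2 ratio of these sums, 6 weeks over 1 week, was 0.013 (0.0068 to 0.019), a difference that took the other sign, at -0.0060, when mitochondrially encoded genes were left out of the total.

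The core particle genes were the more abundant at the mRNA level. At 1 week the median level was 143 CPM for the alpha ring, 138 CPM for the beta ring, 78.3 CPM for the base and 81.6 CPM for the lid. The highest members at 1 week were Prosalpha3, at 249.9 CPM (29674 UMIs), and Prosbeta4, at 244 CPM (28940 UMIs). Apart from Prosalpha1 the lowest was Rpn2, a large scaffold subunit of the base, at 46.2 CPM at 1 week and 49.9 CPM at 6 weeks. The levels of the 32 genes were alike at both ages: their log2 levels correlated with r = 0.998 between the libraries (across genes, which are not independent replicates). Prosalpha1, far below the other genes at 6.41 CPM at 1 week, is among the 32, and a gene so far off can raise r.

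**Figure D1:**
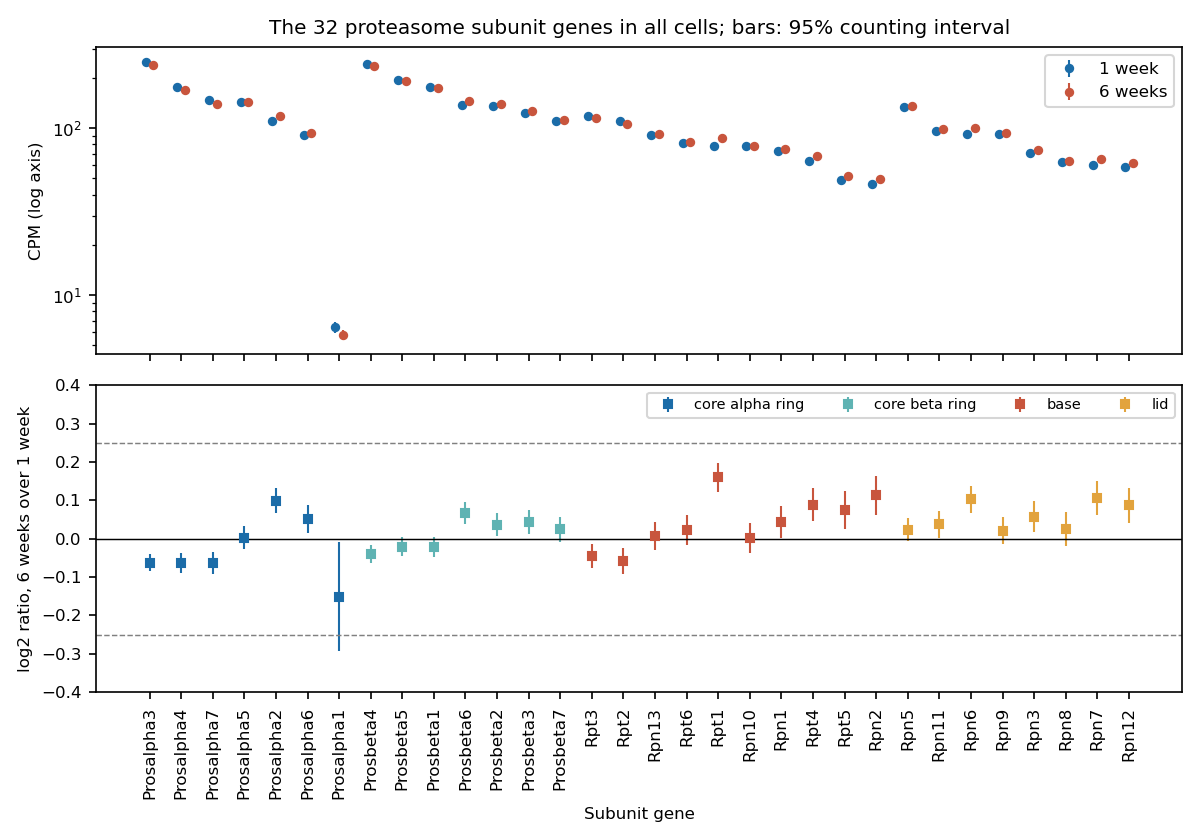
Level of the 32 canonical subunit genes in all cells (upper panel, CPM on a log axis, 1 week and 6 weeks) and their log2 ratio, 6 weeks over 1 week (lower panel, coloured by subcomplex, bars are 95% counting intervals, dashed lines at 0.25 and -0.25). No gene passes a dashed line, all 8 lid genes taken by the symbol rule lie above 0, and Prosalpha1 lies far below the other genes in level.

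The peptidase subunits barely differed between the ages. Prosbeta1, which carries the caspase-like site, stood at 176 CPM at 1 week and 174 CPM at 6 weeks. Prosbeta2, with the trypsin-like site, stood at 137 and 140.2 CPM. Prosbeta5, with the chymotrypsin-like site, stood at 195 and 192 CPM. The log2 ratios of the 3 genes were -0.022 (-0.048 to 0.0044), 0.036 (0.0066 to 0.066) and -0.021 (-0.046 to 0.0044).

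The ubiquitin-handling subunits of the regulatory particle were as level. Rpn10, a ubiquitin receptor, was at 77.9 CPM at 1 week and 78.0 CPM at 6 weeks, and Rpn13, another receptor, was at 91.3 and 91.8 CPM. Rpn1, the base subunit that also binds the shuttle factors, was at 72.9 and 75.2 CPM. Rpn11, the metalloprotease of the lid that cuts off the ubiquitin chain, was at 96.3 and 98.9 CPM, a log2 ratio of 0.038 (0.0024 to 0.073).

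Of the 32 subunits in all cells, 23 lay above 0 and 9 below 0 in log2 ratio, while 48.4% of the 10056 genes with at least 30 UMIs lay above 0. None reached a log2 ratio of 0.25 in either direction, where 15% of all genes lay at 0.25 or higher and 19.5% at -0.25 or lower. The 3 highest ratios were those of the ATPase Rpt1 (78.7 to 87.9 CPM, 0.16), Rpn2 (46.2 to 49.9 CPM, 0.11) and the lid subunit Rpn7 (60.5 to 65.1 CPM, 0.11). Rpt1 overlaps CG17985 on the same strand, so that its UMIs are not certain to be its own. The 3 lowest were Prosalpha1 (6.41 to 5.77 CPM, -0.15), Prosalpha7 (147 to 140.3 CPM, -0.063) and Prosalpha4 (176 to 169 CPM, -0.063).

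Among the genes taken by the symbol rule, the lid was the subcomplex with the highest ratio and the alpha ring the subcomplex with the lowest. The 8 lid genes summed to 668 CPM at 1 week and 693 CPM at 6 weeks (0.054, 0.040 to 0.067), and all 8 lay above 0. The rule leaves out Sem1, a small lid subunit, which went from 112 to 102 CPM (-0.13, -0.16 to -0.092). The place of the lid with Sem1 included was not tested. The base had 8 of 10 genes above 0 (0.028, 0.016 to 0.041), the beta ring 4 of 7 (0.0045, -0.0059 to 0.015) and the alpha ring 3 of 7 (-0.021, -0.033 to -0.0099). The 18 regulatory particle genes together summed to 1459 CPM at 1 week and 1500.2 CPM at 6 weeks, so that the ratio of core to regulatory UMIs was 1.40 at 1 week and 1.36 at 6 weeks. The ratio of mRNA UMIs is not a subunit stoichiometry, because capture differs between genes.

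Prosalpha1 (FBgn0263121) is given as uncertain. It had 761 UMIs at 1 week and 853 at 6 weeks, 6.41 and 5.77 CPM, whereas the other 31 canonical subunits ran from 46.2 to 249.9 CPM at 1 week. In the BDGP6 annotation it lies at 2R:7827303-7828678 on the minus strand, and a near-identical copy named Prosalpha1R, carried in the matrices as CG30382 (FBgn0050382), lies at 2R:7830413-7831771 on the same strand. CG30382 had 0 UMIs in both libraries, and the rule does not take it. Reads that match both copies equally well are usually given to neither, and their part in the low level was not tested.

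The paralogs were almost silent. All 15 together had 160 UMIs at 1 week and 181 at 6 weeks, and 3 of them (Prosbeta4R1, Prosbeta4R2 and Prosbeta5R1) had none at either age. Only Prosbeta2R2 (76 and 77 UMIs), Rpt3R (39 and 61 UMIs) and Prosalpha4T2 (18 and 14 UMIs) reached 30 UMIs over both libraries, and many of these copies are known from the testis. Prosbeta2R2 was spread thinly, over 72 cells at 1 week and 76 at 6 weeks. Rpt3R was the paralog with most UMIs in germ cell-like cells, 8 of 39 at 1 week and 27 of 61 at 6 weeks, although these cells numbered 106 and 84. Rpt4R had 1 UMI at 1 week and 8 at 6 weeks, 7 of the latter in germ cell-like cells.

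Levels differed more between clusters than between ages. Among the clusters the canonical sum at 1 week ran from 457 CPM to 5111 CPM, while the summed log2 ratios between the ages stayed between -0.25 and 0.37. Cluster levels at 1 week and at 6 weeks correlated with r = 0.973 over the 26 clusters with at least 50 cells at 1 week. Among the 26 is the cluster led by Hr4, at 457 CPM at 1 week, where the next lowest stood at 1917 CPM. A cluster so far off can weigh heavily on this r and those below, and values without it were not computed. Cluster levels also went with depth and with the mitochondrial share, which are properties of the same cells: at 1 week r was 0.494 with log2 median UMIs and -0.554 with the mitochondrial percent. Their part in the differences between clusters was not tested.

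**Figure D2:**
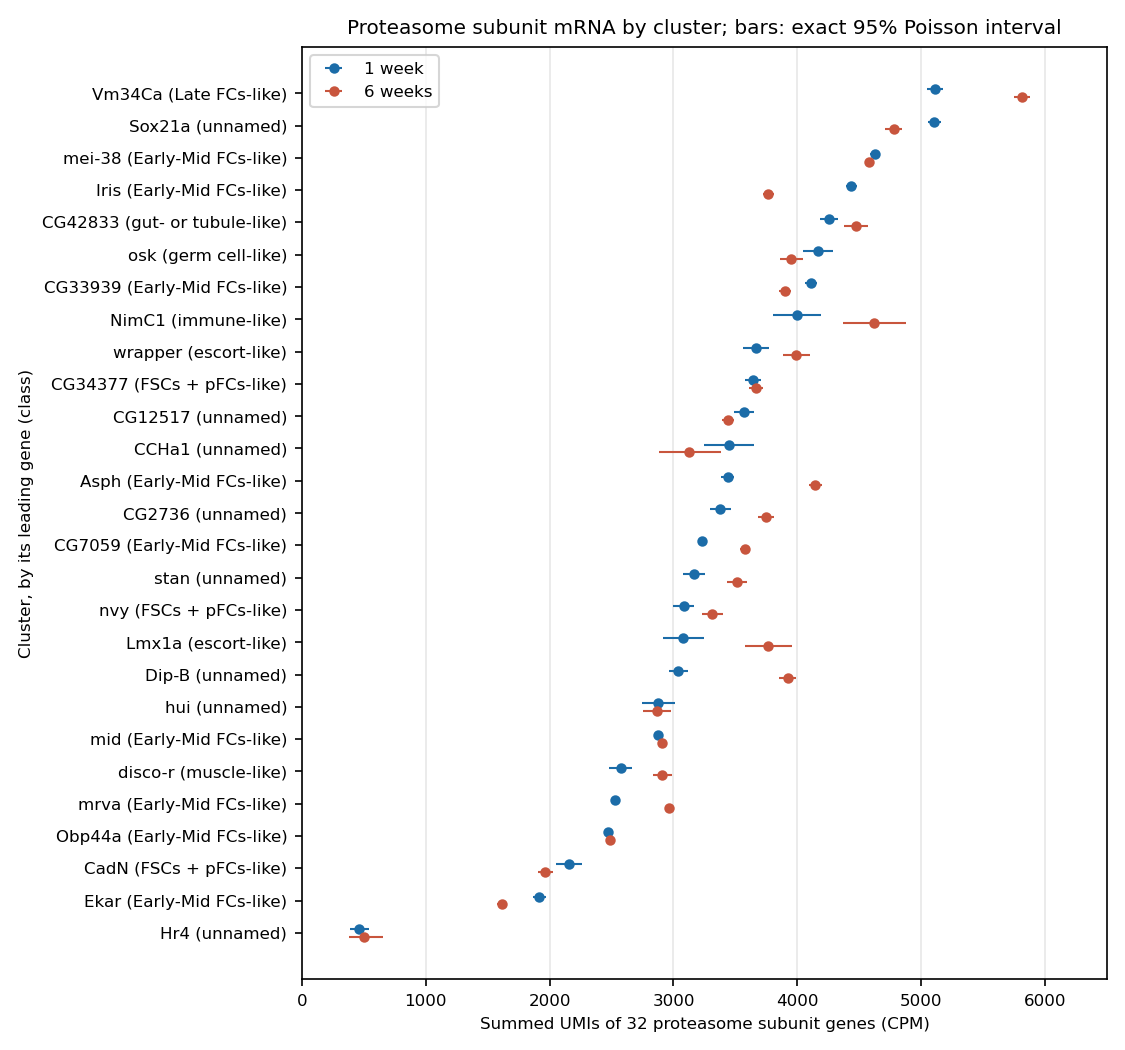
Summed CPM of the 32 canonical subunits (x axis) in each of the 27 clusters (y axis, named by leading gene and class) at 1 week and 6 weeks, with exact 95% Poisson intervals. Levels at both ages lie close together relative to the spread of clusters, which runs from 457 CPM in the cluster led by Hr4 to 5111 CPM in Late FCs-like cells at 1 week, and the Dip-B cluster shows the largest log2 ratio between the ages of the 27, 0.37.

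Late FCs-like cells, whose leading genes encode vitelline membrane proteins, had the highest sum of the named classes at both ages, 5111 CPM (5049.8 to 5172) at 1 week and 5813 CPM (5747 to 5879) at 6 weeks. All 32 subunits were above their all-cell level in these cells at 1 week, by 1.08-fold (Rpn6) to 1.66-fold (Prosalpha5), where 18.4% of the 9349 genes compared were above theirs. All 32 were above it at 6 weeks too, by 1.24-fold to 2.13-fold (Prosbeta4), against 22.9% of genes. Prosbeta5, a peptidase subunit, stood at 272 CPM in Late FCs-like cells at 1 week against 195 CPM in all cells. Other large complexes had fewer of their genes above the all-cell level. At 1 week these were 3 of 8 chaperonin (CCT), 2 of 8 COP9 signalosome and 3 of 12 eIF3 genes, against 18.4% of genes. Their median log2 folds were -0.23, -0.20 and -0.23, where the median subunit stood at 0.54 and the median of all genes at -0.89. At 6 weeks 4 of 8, 5 of 8 and 4 of 12 were above it, against 22.9% of genes. Late FCs-like cells were also the deepest, with median UMIs of 45650.5 and 67509, and the fold over all cells at 1 week was 1.43 after each cell was thinned to 1000 UMIs, against 1.46 before. It was 2.70 with the median gene set to 1 and 1.26 at Leiden resolution 2. The class held 126 and 83 cells. Its raised markers were mainly yolk protein and vitelline membrane genes, whereas chorion transcripts were higher outside it. At 1 week Cp15 stood at 25.5 CPM inside the class against 1692 CPM outside it, and Cp36 at 211 against 386 CPM. Whether follicle cells that make chorion lie in other clusters was not tested.

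Gut- or tubule-like cells, a class of epithelial cells that came with the ovaries (173 cells at 1 week), had sums of 4256 CPM (4185 to 4328) and 4476 CPM (4381 to 4572). In them 30 of 32 subunits were above the all-cell level at 1 week, where 44.1% of genes were, and 27 of 32 at 6 weeks, where 43.5% were. The highest fold at 1 week was that of Rpn13, 1.58, and the lowest that of Rpn5, 0.859.

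Germ cell-like cells stood at 4167 CPM (4048 to 4288) at 1 week and 3949 CPM (3858 to 4042) at 6 weeks. In these cells 27 of 32 subunits were above the all-cell level at 1 week, from 0.846-fold (Rpn1) to 1.51-fold (Prosalpha6), and 60.6% of all genes were. At 6 weeks it was 23 of 32, where 60.5% of genes were. The median gene stood 0.38 higher on the log2 scale in germ cell-like cells than in all cells at 1 week, and set against that gene the proteasome sum was 0.913 of its all-cell level, on the other side of 1. The lid had the highest fold there, 1.35, with Rpn11 at 139 CPM against 96.3 CPM in all cells, and the beta ring the lowest, 1.13.

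Muscle-like cells had the lowest sum of the named classes, 2573 CPM (2480 to 2668) at 1 week and 2910 CPM (2835 to 2986) at 6 weeks. All 32 subunits were below their all-cell level at 1 week, where 57.9% of genes were, and 28 of 32 at 6 weeks, where 54.8% were. At 1 week Rpn11 was lowest relative to all cells, 0.469-fold, at 45.2 CPM against 96.3 CPM. Muscle-like cells were shallow (median 2319 and 2514 UMIs) and rich in mitochondrial transcripts at 1 week (11.5%).

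**Figure D3:**
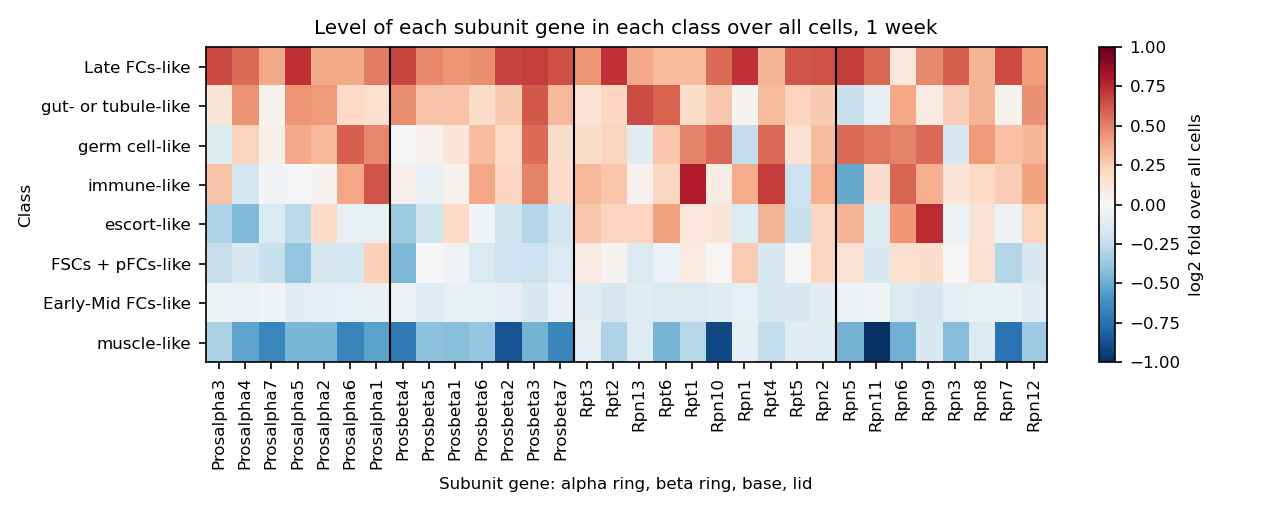
Log2 fold of each canonical subunit (columns, grouped by alpha ring, beta ring, base and lid) over its all-cell level at 1 week in each of 8 classes (rows). Every cell of the Late FCs-like row is above 0 and every cell of the muscle-like row below 0, while escort-like cells are below 0 for 12 of 14 core genes and above 0 for 13 of 18 base and lid genes, where 63.1% of all genes lie above 0. Colours end at 1 and -1, which Rpn11 in muscle-like cells (0.469-fold) passes.

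Cytoplasmic ribosomal protein genes took 43.6% of UMIs in all cells at 1 week and 49.7% in the Early-Mid FCs-like class. They took 29.1% in the FSCs + pFCs-like class (named for follicle stem and prefollicle cells) and 15.9% in the escort-like class. The order of the classes differed with the total used. With CPM taken outside mitochondrially encoded and ribosomal protein genes, a scale chosen after seeing the data, Late FCs-like cells again led the classes at 1 week with 8944, but Early-Mid FCs-like cells came next with 7298, above germ cell-like cells with 7157, and escort-like cells stood at 4771 below the all-cell 6931. On the CPM scale escort-like and all cells had stood at 3514 and 3506.

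Within the follicle lineage the sum was spread widely. In the Early-Mid FCs-like class it ran from 1917 CPM to 4627 CPM at 1 week over 9 clusters. The highest of them was led by mei-38, sei and aurB, the last a kinase of mitosis, at 4627 CPM (1 week) and 4580 CPM (6 weeks). Next came the cluster led by Iris, CG9265 and CG34120, at 4437 and 3767 CPM, and the cluster led by CG33939 and dpp, a BMP ligand, at 4109 and 3901 CPM. The large cluster led by mid and Hesr (1049 and 1289 cells) stood at 2871 and 2903 CPM, and the cluster led by the odorant-binding protein gene Obp44a at 2470.0 and 2490 CPM. The cluster led by Ekar was lowest, at 1917 and 1615 CPM, and 12.2% and 12.3% of its UMIs were mitochondrial.

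An unnamed cluster led by the transcription factor gene Sox21a, with Sox100B, stood as high as Late FCs-like cells at 1 week, at 5105 CPM (5053 to 5157), and at 4778 CPM at 6 weeks. At the other end, the unnamed cluster led by the nuclear receptor gene Hr4 had 457 CPM at 1 week (112 cells) and 502 CPM at 6 weeks (46 cells). Its cells were shallow, with a median of 2201.5 UMIs and 12.5% mitochondrial UMIs at 1 week, and ribosomal protein genes took 5.09% of its UMIs.

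The balance of core to regulatory mRNA differed between lineages. The ratio of their summed UMIs at 1 week was 1.46 in Late FCs-like cells, 1.44 in the Early-Mid FCs-like class, 1.496 in the gut- or tubule-like class, 1.26 in the germ cell-like class, 1.20 in the FSCs + pFCs-like class and 1.07 in the escort-like class. At 6 weeks it was 1.498, 1.41, 1.55, 1.35, 1.15 and 1.07 in the same order, and across clusters at 1 week it ran from 0.944 to 1.58. Of the 7 clusters under 1.1 at 1 week, 2 were escort-like, 1 was FSCs + pFCs-like and 4 were unnamed, and none was Early-Mid FCs-like. In escort-like cells at 1 week 2 of 14 core genes and 13 of 18 regulatory genes were above their all-cell level, where 63.1% of all genes were, so that the regulatory share lay near the background and the core share below it. The median regulatory gene stood 0.21 above its all-cell level on the log2 scale and the median of all genes 0.45. At 6 weeks 8 of 14 core genes and 18 of 18 regulatory genes were above it, where 64.6% of all genes were. At 1 week the extremes among the subunits were Rpn9, a lid subunit, at 155 CPM against 92.4 CPM (1.68-fold), and Prosalpha4, at 129.5 CPM against 176 CPM (0.734-fold). Of these 7 clusters all but the Dip-B cluster (median 10615 UMIs) had median depths of 1848 to 4546.5 UMIs at 1 week, and the part of depth in the ratio was not tested.

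**Figure D4:**
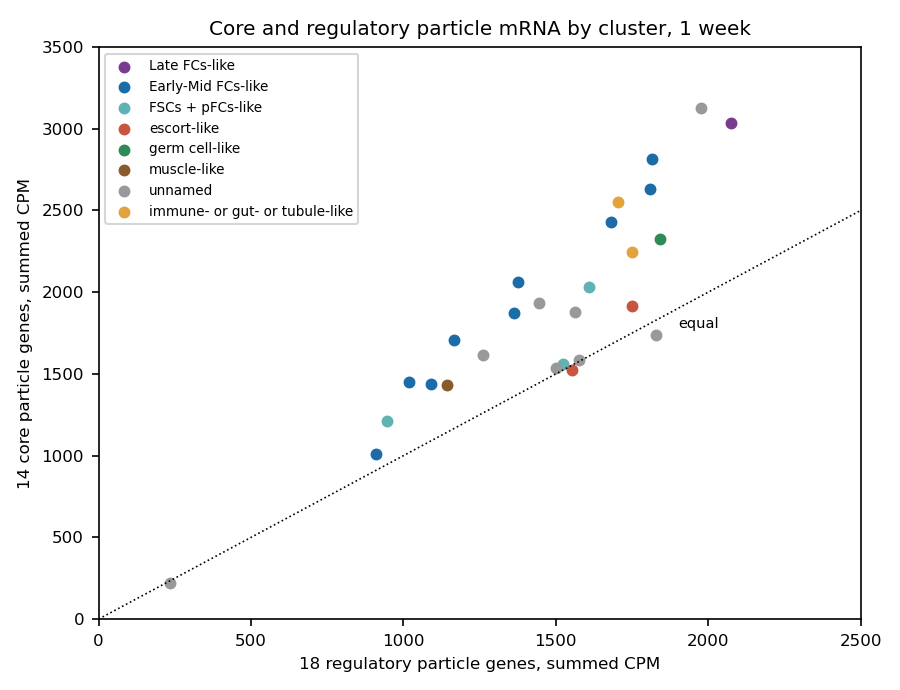
Summed CPM of the 14 core genes (y axis) against that of the 18 regulatory genes (x axis) in each of the 27 clusters at 1 week, coloured by class, with a dotted line where both are equal. Early-Mid FCs-like clusters lie above the line, at ratios of 1.11 to 1.55, and the escort-like clusters lie close to it, at 0.982 and 1.09.

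The relative levels of the subunits were alike across cell types. Over the 32 genes, log2 CPM in a class at 1 week correlated with that in all cells at r = 0.957 (escort-like and immune-like) to r = 0.999 (Early-Mid FCs-like), where the Early-Mid class itself holds most cells of the total and Prosalpha1 is the lowest of the 32 genes in all cells.

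Between the ages, the class sums moved in different directions, by little. In Early-Mid FCs-like cells (5166 and 5499 cells) the sum was 3291 CPM at 1 week and 3388 CPM at 6 weeks, a log2 ratio of 0.042 (0.035 to 0.049). It was 0.026 with CPM taken outside mitochondrially encoded genes, 0.012 when ribosomal protein genes were left out as well, and 0.072 with no mitochondrial limit on cells. Of its 32 subunits 25 lay above 0, as did 49.7% of 8842 genes, and none passed 0.25 in either direction, as 13.7% of genes did upward and 14.3% downward. The highest ratios were those of Rpt1 (71.1 to 81.5 CPM, 0.20), Prosalpha2 (103 to 113 CPM, 0.14) and Rpn2 (43.0 to 46.9 CPM, 0.13), and the lowest those of Prosalpha1 (6.09 to 5.57 CPM, -0.13), Prosalpha7 (144 to 138 CPM, -0.060) and Rpt3 (110.6 to 107 CPM, -0.052). All 8 lid genes taken by the symbol rule again lay above 0, as in all cells, most of which belong to this class. Sem1, which the rule leaves out, went from 105 to 98.6 CPM (-0.096).

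The Early-Mid value was an average over clusters that went opposite ways. Of its 9 clusters 5 lay above 0 and 4 below. The cluster led by Asph went from 3438 to 4145 CPM (0.27) and the cluster led by mrva, Dip-B and Mct1 from 2530 to 2963 CPM (0.23). The Iris cluster went from 4437 to 3767 CPM (-0.24) and the Ekar cluster from 1917 to 1615 CPM (-0.25). Over all 27 clusters 17 lay above 0, and the highest ratio was in the unnamed cluster led by Dip-B, CG6424 and CG14688, from 3039 to 3921 CPM (0.37).

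FSCs + pFCs-like cells (909 and 1189 cells) were named by markers listed for follicle stem and prefollicle cells. Whether stem cells are among them was not tested. A cluster led by CG34377, upd1 and Hk held 336 of these cells at 1 week and 351 at 6 weeks. At 1 week upd1 was at 262 CPM in the class against 0.982 CPM outside it. The class sum was 3285 CPM (3238 to 3333) at 1 week and 3161 CPM (3122 to 3201) at 6 weeks. This is a log2 ratio of -0.055 (-0.083 to -0.028). The median of all genes lay at -0.058 in the same cells. None of the 32 subunits reached 0.25, as 12.9% of 7126 genes did, and 1, the uncertain Prosalpha1, was at -0.25 or lower, as were 23.1%. The lowest ratios among genes with at least 200 UMIs were those of Prosalpha4 (159 to 139 CPM, -0.19), Rpn5 (148 to 130.3 CPM, -0.18) and Prosbeta5 (195 to 173 CPM, -0.17), and the highest those of Rpt4 (57.5 to 66.2 CPM, 0.20), Rpn7 (49.4 to 55.1 CPM, 0.16) and Prosalpha2 (98.3 to 108 CPM, 0.14). Of its 3 clusters 2 lay above 0 and 1 below, the cluster led by CadN with 13.48% and 13.3% mitochondrial UMIs, which went from 2158 to 1966 CPM and from 167 to 464 cells. Without the clusters over 12% mitochondrial the class ratio was 0.042, an alternative chosen after seeing the data.

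In escort-like cells (421 and 437 cells), the somatic cells that wrap the early germline cysts, the sum went from 3514 CPM (3424 to 3605) to 3936 CPM (3842 to 4032), a log2 ratio of 0.16 (0.11 to 0.22) against 0.050 for the median gene. Of 32 subunits 12 reached 0.25, as did 26.3% of 6169 genes, and none was at -0.25 or lower, as 17.7% were. Rpn11 went from 86.9 to 119 CPM (0.45, 0.13 to 0.77), Rpn1 from 66.9 to 90.5 CPM (0.44) and Prosbeta5 from 169.6 to 209.6 CPM (0.31), while Prosbeta1 stood at 202 and 194 CPM (-0.060). Both escort-like clusters lay above 0, at 0.12 and 0.29. The mitochondrial share of the class was 10.5% at 1 week and 7.17% at 6 weeks, and with CPM taken outside mitochondrially encoded genes the ratio was 0.11. It was 0.098 when ribosomal protein genes were left out as well, and 0.074 with each cell thinned to 1000 UMIs.

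In muscle-like cells (354 and 495 cells) the log2 ratio was 0.18 (0.11 to 0.24), with 0.086 for the median gene. Of the 31 subunits with at least 30 UMIs 14 reached 0.25, as did 32.8% of 5473 genes, and none was at -0.25 or lower, as were 18.9%. Prosbeta3 went from 88.6 to 126 CPM (0.51, 0.17 to 0.86) and Rpt1 from 64.7 to 95.7 CPM (0.56, 0.17 to 0.97). The mitochondrial share was 11.5% and 5.89% here, and with cells limited to 10% mitochondrial UMIs the ratio was 0.0085.

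In Late FCs-like cells the ratio was 0.19 (0.16 to 0.21), with 0.12 for the median gene. Of 32 subunits 11 reached 0.25, as did 36.8% of 5850 genes, and 1 was at -0.25 or lower, as were 21.2%: Rpn1 went from 121 to 100.03 CPM (-0.27, -0.44 to -0.10). Rpt4 went from 80.9 to 112 CPM (0.48) and Prosbeta4 from 388 to 504 CPM (0.38). In the same cells the vitelline membrane gene Vm34Ca went from 73902 to 20175 CPM, and ribosomal protein genes from 37.6% to 45.2% of UMIs, and the part of these differences in the proteasome sum was not tested.

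In germ cell-like cells the ratio was -0.077 (-0.13 to -0.024), with -0.086 for the median gene. Of the 31 subunits with at least 30 UMIs 3 reached 0.25, as did 25% of 6066 genes, and 8 were at -0.25 or lower, as were 37.2%. The base summed to 943 CPM at 1 week and 822 CPM at 6 weeks (-0.20, -0.31 to -0.083), with Rpt2 going from 129 to 92.2 CPM. Rpn11 went from 139 to 98.8 CPM (-0.49, -0.81 to -0.17), and Rpn6 from 131 to 158 CPM (0.28, -0.016 to 0.58). The 5 deepest cells held 22.7% of the class's UMIs at 1 week and 34.8% at 6 weeks, at 4682 and 3078 CPM. Without them the class stood at 4015 CPM (3883 to 4151) at 1 week and 4414 CPM (4295 to 4536) at 6 weeks, a log2 ratio of 0.14, with the opposite sign. That alternative was chosen after seeing the data.

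Immune-like cells (54 and 18 cells) stood at 3995 CPM (3802 to 4195) and 4617 CPM (4370.0 to 4873), and gut- or tubule-like cells differed by 0.072 (0.033 to 0.11). The all-cell values pool the classes, and in them alone fewer cells of a type and less RNA per cell cannot be told apart. Captured cells and UMIs per cell were counted by class, as in Late FCs-like cells (126 and 83 cells, median 45650.5 and 67509 UMIs).

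**Figure D5:**
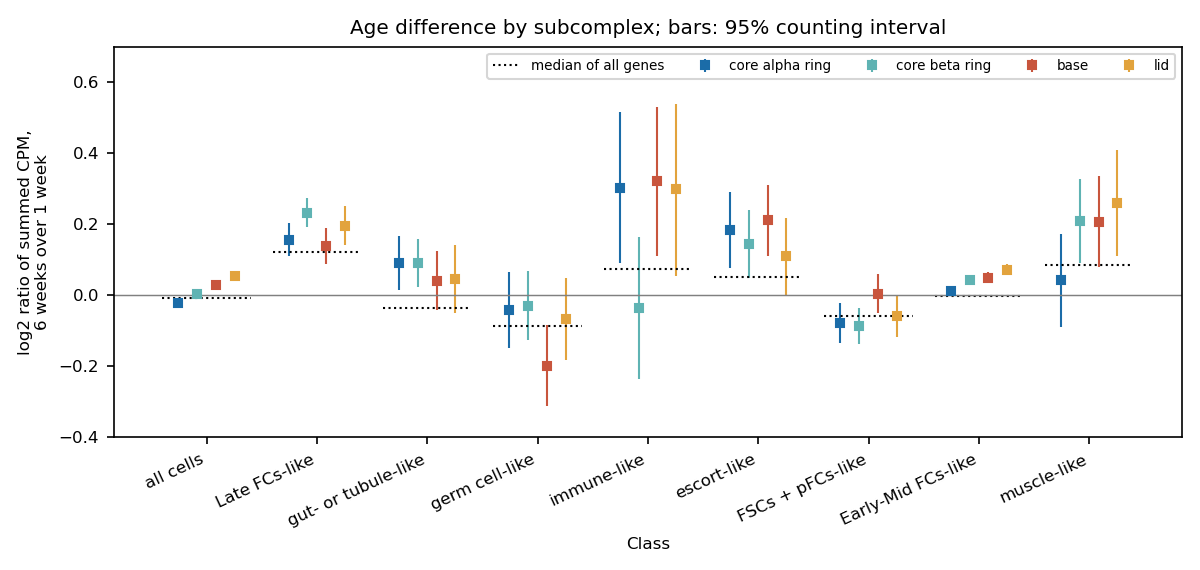
Log2 ratio of summed CPM, 6 weeks over 1 week, for the alpha ring, beta ring, base and lid in all cells and in 8 classes, with 95% counting intervals, and dotted lines for the median of all genes with at least 30 UMIs in that class. Every subcomplex lies above 0 in Early-Mid FCs-like, Late FCs-like, escort-like, muscle-like and gut- or tubule-like cells. All but the base lie below 0 in FSCs + pFCs-like cells, and the germ cell-like base lies lowest, at -0.20.

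Over clusters at 1 week the members followed one another closely. A proteasome pattern was taken as the median of the 32 genes' log2 CPM in each cluster, each gene centred on its mean. The correlation of each subunit with this pattern over 26 clusters had a median of 0.942, from 0.849 (Rpn6) to 0.980 (Prosbeta5), where the gene is part of the pattern and the clusters share a library and differ in depth. At 6 weeks the median was 0.938 and the lowest was Rpn2, at 0.491. For all other genes with at least 200 UMIs in each library the median was 0.147 at 1 week (7596 genes). The 26 clusters include the one led by Hr4, with 457 CPM and only 140 subunit UMIs at 1 week. It lies far below the others and can weigh heavily on these correlations, which were not computed without it.

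The non-member most like the proteasome pattern was Pomp, the maturation factor that assembles the core particle, with r = 0.967 at 1 week and 0.909 at 6 weeks. It was followed by eIF2Balpha (0.954), Usp14, a deubiquitinase that binds the proteasome (0.945), DENR (0.942), Sem1, a small lid subunit that the symbol rule does not take (0.937), and Txl (0.934). The remaining genes of the first 10 were strat, l(2)k14505, mRpS23 and ND-13A, at 0.931 to 0.934. Among gene groups the median r at 1 week was 0.828 for 5 genes of the p97 unfoldase and its cofactors, 0.704 for 8 COP9 signalosome genes, 0.697 for 8 CCT genes, 0.612 for 14 proteasome accessory genes, 0.534 for 12 eIF3 genes, 0.498 for 85 ribosomal protein genes and 0.137 for 21 autophagy genes. It was -0.437 for 6 genes known to control proteasome or stress-response transcription, among them foxo (-0.708), Hsf (-0.641) and cnc (-0.538), while maf-S, the partner of cnc, was at 0.689. All of these values include the Hr4 cluster, and the order of genes and groups without it was not computed.

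Most genes that work beside the proteasome stayed under a log2 ratio of 0.25 in either direction in all cells, but their sums differed more than the subunit sum (0.013). The summed log2 ratio was 0.034 for the accessory genes and 0.10 (0.099 to 0.11) for the ubiquitin group described below. It was 0.078 for the p97 group and -0.056 for the regulators. Of 14 accessory genes 8 lay above 0 and 6 below, where 48.4% of all genes lay above 0, and 2 reached a log2 ratio of 0.25, as 15% of all genes did: Ubqn, a shuttle factor, at 42.5 CPM at 1 week and 51.4 CPM at 6 weeks (0.27), and ntc at 4.08 and 5.27 CPM (0.37). Pomp stood at 159 and 164 CPM, and Sem1 at 112 and 102 CPM (-0.13). All 5 genes of the p97 group lay above 0, with TER94, the unfoldase itself, at 85.3 and 90.6 CPM. All 10 genes for ubiquitin, its activating enzyme and conjugating enzymes lay above 0, none at 0.25. Among the 10 are RpL40 and RpS27A, which also encode ribosomal proteins. The median log2 ratio of the 10 genes was 0.063, and the sum of this group without RpL40 and RpS27A was not computed. Of the 6 regulators crc, the fly ATF4, was at 296 and 247 CPM (-0.26), and cnc at 232 and 248 CPM (0.10).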

How the data were processed

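The deposited files are 10x matrices of raw UMI counts per gene and barcode, 1 per age, which the authors made with Cell Ranger 9.0.0 against BDGP6 per the submitters' processing notes. The thresholds of the study's own cell filter are not given in the sources used here. The sources differ on the version of the capture kit, and whether captures were merged within an age is not given in them.

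Members, gene lists and thresholds were chosen with earlier results of these data known. Of 33317 and 20224 barcodes, those holding 500 genes and 1000 UMIs or more, with no more than 20% mitochondrial UMIs, were kept as cells. Cells of the 1-week library were clustered in scanpy 1.11.5 (2000 variable genes without members, 30 principal components, 20 neighbours, Leiden resolution 1), and each 6-week cell was placed by its 30 nearest 1-week neighbours, of which a median of 96.7% lay in the chosen cluster. A cluster was named from at least 3 markers raised 2-fold. The Early-Mid FCs-like class had a further rule for clusters that met no class. It asked for at least 3 of its markers to be detected in 25% of cells, without being raised. It also set a minimum depth and a limit of 10 genes raised 8-fold. Doublets were left in, and an alternative removed the 1217 and 799 cells with the highest Scrublet scores. UMI counts were summed per library and class, with exact Poisson intervals for levels and exact binomial intervals for ratios, which cover counting error only. A log2 ratio was read for genes with at least 30 UMIs and counted as higher or lower at 0.25. No test was run with 1 library per age. Genes described singly were the peptidase subunits, the ubiquitin receptors, Rpn11, the 3 highest and 3 lowest ratios in all, Early-Mid FCs-like and FSCs + pFCs-like cells, and the 10 non-members most like the members. Other members in the class paragraphs were chosen after their values were seen. Alternatives changed the cell filter, scale, weighting, depth, doublets and clustering. Some of the steps, among them the intervals, were tested on simulated data. The simulated counts were Poisson and lacked the extra spread between real cells. After thinning, the variance over the mean of the subunit counts was 1.82 in all cells at 1 week and 1.88 at 6 weeks. The simulation therefore could not show whether the intervals cover that spread.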

Additional observations from a re-analysis of the deposited data

Results flagged for a closer look

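The summed log2 ratio, 6 weeks over 1 week, had a counting interval below 0 in germ cell-like cells (-0.077) and FSCs + pFCs-like cells (-0.055), and above 0 in Early-Mid FCs-like (0.042), gut- or tubule-like (0.072), escort-like (0.16), muscle-like (0.18), Late FCs-like (0.19) and immune-like cells (0.21). These classes went opposite ways in 1 library per age, and the difference between them was not tested.

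The barcodes outside the filter, 24186 at 1 week and 10346 at 6 weeks, entered no comparison and held proteasome UMIs above the limit that a count of 0 allows. Their canonical sum was 1366 CPM (1353 to 1380) at 1 week and 1308 CPM (1290.4 to 1327) at 6 weeks, with 45.9% and 35.7% mitochondrial UMIs. With CPM taken outside mitochondrially encoded genes it was 2524 and 2034.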

How the results depend on the processing

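Of the summed log2 ratios, those of Early-Mid FCs-like, escort-like and muscle-like cells kept their sign under every alternative run, and those of all cells, FSCs + pFCs-like and germ cell-like cells did not. The causes were not tested. The ratios of Late FCs-like, immune-like and gut- or tubule-like cells were not put through the alternatives. Outside mitochondrial and ribosomal protein genes their summed CPM was 8944, 5238 and 5856 at 1 week and 11468, 6115 and 6235 at 6 weeks. In all cells the ratio (0.013) was 0.041 with no mitochondrial limit, -0.0060 with CPM outside mitochondrially encoded genes, 0.021 with the median gene set to 1, 0.0022 as a mean over cells, 0.0049 after thinning to 1000 UMIs, 0.0053 without doublets, 0.00086 outside mitochondrial and ribosomal protein genes and 0.021 without clusters over 12% mitochondrial. In FSCs + pFCs-like cells (-0.055) it was -0.0085 with up to 10% mitochondrial UMIs, -0.022 with no limit, 0.0025 with the median gene set to 1, -0.17 as a mean over cells, -0.15 thinned, -0.0074 with both libraries clustered together, 0.066 at Leiden resolution 0.5, -0.0037 with the genes of the study's tables kept for clustering and 0.042 without the clusters over 12% mitochondrial. In Early-Mid FCs-like cells (0.042) it was 0.072 with no limit, 0.026 outside mitochondrial genes, 0.035 thinned, 0.029 without doublets and 0.012 outside mitochondrial and ribosomal protein genes. In escort-like cells (0.16) the same settings, doublets aside, gave 0.22, 0.11, 0.074 and 0.098. In muscle-like cells (0.18) it was 0.0085 with up to 10% mitochondrial UMIs, 0.31 with no limit, 0.039 with at least 1000 genes, 0.089 outside mitochondrial genes, 0.092 with the median gene set to 1, 0.32 thinned and 0.058 outside mitochondrial and ribosomal protein genes. In germ cell-like cells (-0.077) it was -0.16 with no limit, 0.0091 with the median gene set to 1, 0.057 as a mean over cells, 0.094 thinned, -0.012 outside mitochondrial and ribosomal protein genes and 0.14 without the 5 deepest cells. The fold of germ cell-like over all cells at 1 week (1.19) was 0.913 with the median gene set to 1, 1.35 as a mean over cells, 1.37 thinned and 1.03 outside mitochondrial and ribosomal protein genes. That of Late FCs-like cells (1.46) was 1.48 with up to 10% mitochondrial UMIs, 1.5002 with no limit, 2.70 with the median gene set to 1, 1.43 thinned, 1.26 at Leiden resolution 2 and 1.29 outside mitochondrial and ribosomal protein genes. No cluster was named germ cell-like at Leiden resolution 0.5, which gave no value there. Leaving out mitochondrial and ribosomal protein genes together, the clusters over 12% mitochondrial, or the 5 deepest germ cells were alternatives chosen after seeing the data. No paired analysis was possible because each age had 1 matrix, whose cells carry no mark of a capture or replicate.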
